A study of Homo sapiens
Mus musculus and Homo sapiens and Mus musculus with 7 samples.

Results

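Human PRKDC, CIT and CENPF and mouse Cenpf are 4 protein-coding genes with long transcripts, among 113473 human and mouse genes counted in 7 RNA libraries. They were selected on a measured value, a share of own-species reads that was higher in the immunoprecipitates (IPs) aimed at the other species, and on an exonic length above 9000 bases. The higher level in those IPs is therefore a property of the choice, and it is described below with no test. The libraries came from HEK293, a human line made from embryonic kidney, and NIH3T3, a mouse fibroblast line. In the co-culture HEK293 expressed HA-tagged RPL22, a protein of the large ribosomal subunit, and NIH3T3 expressed V5-tagged RPL22. The HA antibody was thus aimed at human ribosomes and the V5 antibody at mouse ribosomes. There was 1 library of total co-culture RNA (the input), 1 of HEK293 grown alone, 1 of NIH3T3 grown alone, 2 HA IPs and 2 V5 IPs. For human genes the HA IPs are called on-target and the V5 IPs off-target, and for mouse genes the terms are exchanged. Per the labels, the first HA and the first V5 IP were made from the lysate numbered 1, the second HA IP from the lysate numbered 5 and the second V5 IP from the lysate numbered 4. The sources used here do not say how these lysates relate to each other, whether the monocultures carried the tags, what drives the tagged proteins or whether the lines are clones.

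PRKDC encodes the catalytic subunit of DNA-dependent protein kinase, a very large enzyme that is held at broken DNA ends by the Ku proteins and is needed for their repair by non-homologous end joining. CIT encodes citron kinase, which sits at the midbody and is needed for the last step of cell division, and CENPF encodes centromere protein F, a coiled-coil protein that builds up late in the cell cycle, binds the outer kinetochore in mitosis and is then degraded. In a pull-down through a tagged ribosomal protein, an mRNA is recovered with the ribosomes that read it, and reads of the other species in a mixed culture show what was carried along without the tag.

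In hg38, PRKDC (ENSG00000253729.7) lies on the minus strand of chromosome 8 from 47773108 to 47960183, and its exons merge into 87 blocks that sum to 15417 bases. CIT (ENSG00000122966.15) lies on the minus strand of chromosome 12 from 119685790 to 119877291, with 13230 exonic bases. CENPF (ENSG00000117724.12) lies on the plus strand of chromosome 1 from 214603195 to 214664588, with 11690 exonic bases in 24 blocks. Mouse Cenpf (ENSMUSG00000026605.14) is given on the minus strand of chromosome 1 from 189640606 to 189688086, with 15433 exonic bases, on a mouse build that the sources used here do not name. Exonic length is the union over all annotated isoforms, so it can exceed that of any one mRNA: the longest coding transcript is 13509 bases for PRKDC, 10307 for CENPF and 8708 for CIT. GC content of that transcript was 45.3% for PRKDC, 40.8% for CENPF and 51.5% for CIT, against a median of 47.7% over the 6244 human genes tested. Exons of other genes covered 1.30% of CIT and no part of the remaining genes, which matters because counting ignored strand.

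Libraries held 826781 to 2063885 counts. Off-target reads were the minority: human genes in the V5 IPs rest on 128915 and 81798 counts (6.25% and 4.48%), and mouse genes in the HA IPs on 158572 and 350176. CPM (counts per 1000000) below are of own-species counts unless stated. No read of PRKDC, CIT or CENPF was counted in the NIH3T3 monoculture, where 3 counts would be 1.501 CPM of all counts, and no read of mouse Cenpf in the HEK293 monoculture, where 3 counts would be 3.63 CPM. The summed count of 5 HEK293 markers (KRT8, KRT18, PAX2, LIN28B, NEFM) was 41 in the input and 178 in the HEK293 monoculture. For the HA IPs it was 122 and 180 (167 and 148 CPM), and for the V5 IPs 0 and 4 (0 and 48.9 CPM). NEFM was at 0 in every library of the fit, and all 5 markers were at 0 in the first V5 IP. Genes of the mitochondrial chromosome took 2.28% and 3.54% of the human counts of the V5 IPs, 0.354% and 0.466% of those of the HA IPs and 5.58% of those of the input. What part either of these differences has in the levels of the long transcripts was not tested. The IPs in each pair are the only replicates, nothing says that they came from separate cultures, and so the p-values measure only the spread between these samples, which may be technical.

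PRKDC was counted 21 times in the input (75.0 CPM), 163 times in HEK293 grown alone (197 CPM) and 226 and 75 times in the first and second HA IP (310 and 61.8 CPM). The V5 IPs held 253 and 73 counts (1963 and 892 CPM). Both V5 IPs lay above both HA IPs, as for 15.0% of the human genes tested, and this was a condition of the choice. The lower V5 IP was 2.88 times the higher HA IP. The mean was 1427 ± 757 CPM with V5 and 186 ± 175 CPM with HA (SD, n = 2), a ratio of 7.68. Within IP order the ratio was 6.34 for the first pair (95% counting interval 5.27 to 7.62) and 14.4 for the second (10.3 to 20.2). IPs of the same antibody differed too: the first HA IP held 5.01 times the second, and the first V5 IP 2.20 times the second. Below the V5 IPs, the HEK293 monoculture, the HA mean and the input came in that order, and all lay within the range of the HA IPs. Of all counts rather than human counts, PRKDC was at 254 and 48.0 CPM with HA and 123 and 39.98 CPM with V5, so the HA mean was 1.86 times the V5 mean.

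CIT was nearly absent outside the V5 IPs. It had 0 counts in the input, 4 in the HEK293 monoculture (4.84 CPM) and 1 and 4 in the HA IPs (1.37 and 3.30 CPM). The V5 IPs had 4 and 40 counts (31.0 and 489 CPM). The level in the V5 IPs, 260 ± 324 CPM (SD, n = 2), was thus set by the second V5 IP, which was 15.8 times the first. Against the HA IPs, at 2.33 ± 1.36 CPM, the groups did not overlap, as for 15.0% of the human genes tested. But the first pair gave a ratio of 22.6 with a counting interval from 2.24 to 1115, and the second pair gave 148 (53.6 to 571). Against the input, with 3 counts of that library (10.7 CPM) in place of the 0, the V5 mean was 24.3-fold higher. This is no lower bound, since the counting interval of the 0 reaches 13.2 CPM. That interval overlaps the one of the first V5 IP (8.45 to 79.4 CPM). CIT was the sole human gene of the 3 that passed the filter on low counts only through the V5 IPs, which were the libraries above the 19.8 CPM the filter asked for. It was also higher in the V5 IPs over all counts, at 1.94 and 21.9 CPM against 1.13 and 2.56 CPM in the HA IPs. The input, the HEK293 monoculture and the HA IPs cannot be ordered, since their counting intervals overlap.

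CENPF showed the smallest difference. It was counted 11 times in the input (39.3 CPM), 104 times in the HEK293 monoculture (126 CPM) and 58 and 91 times in the HA IPs (79.5 and 75.0 CPM). The V5 IPs gave 19 and 24 counts (147 and 293 CPM). The HA IPs agreed closely, at 77.2 ± 3.17 CPM, while the V5 IPs were at 220 ± 103 CPM (SD, n = 2), a ratio of 2.85. In the first pair the ratio was 1.85 with a counting interval of 1.04 to 3.16, and in the second it was 3.91 (2.39 to 6.19). The first V5 IP did not stand apart from the HEK293 monoculture, whose counting interval of 103 to 152 CPM takes in its 147 CPM. Over all counts CENPF was the lowest in the V5 IPs relative to HA, at 9.21 and 13.1 CPM against 65.3 and 58.2 CPM, and near the 10.6 CPM of the input.

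Mouse Cenpf, the counterpart of CENPF in the other line, was examined with the antibodies exchanged. It had 41 counts in the input (54.0 CPM), 134 in the NIH3T3 monoculture (67.0 CPM), 63 and 57 in the on-target V5 IPs (32.6 and 32.7 CPM), and 91 and 88 in the off-target HA IPs (574 and 251 CPM). The V5 IPs were at 32.6 ± 0.0839 CPM and the HA IPs at 413 ± 228 CPM (SD, n = 2), a ratio of 12.6, with 17.6 for the first pair (12.6 to 24.7) and 7.69 for the second (5.45 to 10.9). Unlike PRKDC and CENPF, mouse Cenpf was higher in the off-target IPs even over all counts, at 102 and 56.3 CPM with HA, 30.5 and 31.2 CPM with V5 and 39.4 CPM before any IP. The 2 genes of this protein were thus both higher off-target among own-species counts, by 2.85 and 12.6 times. The difference between these 2 ratios was not tested. Non-overlap in this direction was found for 15.0% of the human and 17.7% of the mouse genes tested, and it was a condition of the choice here.

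**Figure D1:**
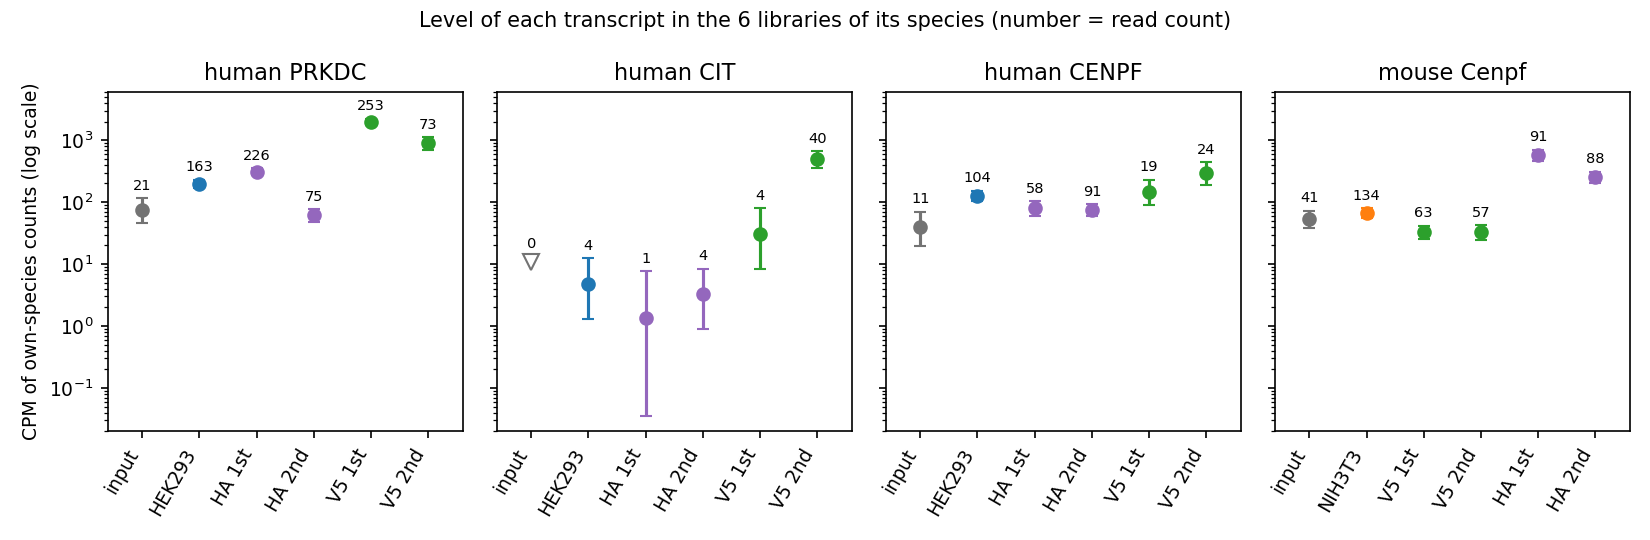
CPM of own-species counts (log axis) for human PRKDC, CIT and CENPF and mouse Cenpf in the co-culture input, the monoculture of the species and the first and second HA and V5 IPs. Points are single libraries with exact Poisson 95% intervals, numbers are read counts, and the open triangle marks 3 counts where CIT had 0. The off-target IPs (V5 for human, HA for mouse) lie above the on-target IPs in each panel, which was a condition of the choice.

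Per kilobase of exonic length, which allows genes to be set beside each other, the HEK293 monoculture held 12.8 CPM of PRKDC, 10.8 CPM of CENPF and 0.366 CPM of CIT. In the V5 IPs the order was PRKDC at 92.6 ± 49.1, CIT at 19.7 ± 24.5 and CENPF at 18.9 ± 8.83 CPM per kilobase (SD, n = 2). CIT thus came from far below CENPF in the monoculture to a level that its spread does not separate from CENPF. Mouse Cenpf was at 2.11 ± 0.00544 CPM per kilobase with V5 and 26.7 ± 14.8 with HA. Together the 3 human genes took 0.214% and 0.167% of the human reads of the V5 IPs, 0.0391% and 0.0140% of those of the HA IPs and 0.0114% of those of the input.

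The choice did not use the on-target comparisons, which ask whether tagged ribosomes of the same line carried more or less of these mRNAs than total RNA did. None of the 4 genes passed edgeR's quasi-likelihood test there at an adjusted p under 0.05, and none was called by DESeq2. At an unadjusted p under 0.05 there was 1, mouse Cenpf against the NIH3T3 monoculture. PRKDC differed between the HA IPs and the input by a log2 difference of 1.00 (SE 0.68, adjusted p = 0.749) and CENPF by 0.80 (SE 0.93, adjusted p = 0.881), where 0.625% of the 6244 human genes were called. CIT, with 0 counts in the input and 5 over both HA IPs, gives no fold (edgeR adjusted p = 0.872). It entered the fit only through the V5 IPs, and the HEK293 monoculture held 4 counts. Its lack of a call in either on-target comparison therefore carries no information. Against the HEK293 monoculture, where 0.368% of human genes were called, the log2 difference of the HA IPs was -0.21 (SE 0.60) for PRKDC, -0.70 (SE 0.79) for CENPF and -0.86 (SE 1.37) for CIT. Over 12 alternative settings the first of these took both signs, from -1.52 to 0.45, and was 0.45 without the second HA IP.

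Mouse Cenpf was lower in the on-target V5 IPs than in either total RNA, without passing the test. The log2 difference was -0.99 (SE 0.54, edgeR adjusted p = 0.640) from the input, where 0.815% of the 8221 mouse genes were called, and -1.09 (SE 0.51, edgeR adjusted p = 0.778) from the NIH3T3 monoculture, where 0.377% were called. Counting intervals of the V5 IPs were 25.0 to 41.7 and 24.7 to 42.3 CPM. They overlapped that of the input (38.7 to 73.2 CPM) but not that of the NIH3T3 monoculture (56.2 to 79.4 CPM). The log2 difference stayed below 0 under 11 alternatives in both comparisons. It was between -1.64 and -0.72 from the input and between -1.16 and -0.87 from the monoculture. The 2 comparisons share the V5 IPs.

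For the off-target IPs, the same fits give the size of the difference that the choice rests on. V5 minus HA was 2.71 (SE 0.52) for PRKDC, 6.10 (SE 1.10) for CIT and 1.10 (SE 0.70) for CENPF on the log2 scale, while the median human gene was at -0.37. HA minus V5 was 3.36 (SE 0.47) for mouse Cenpf, with the median mouse gene at -0.13. Off-target minus input was 3.70 (SE 0.76) for PRKDC, 1.90 (SE 0.98) for CENPF and 2.38 (SE 0.60) for mouse Cenpf. These comparisons share the off-target IPs and are not separate evidence. With DESeq2 size factors the median of all human genes in V5 minus HA moved to -0.03, and with total counts to 0.00, so the values are best read relative to the median.

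The co-culture input held less of PRKDC and CENPF than the HEK293 monoculture did. The ratio of input to monoculture was 0.380 for PRKDC (counting interval 0.229 to 0.601) and 0.312 for CENPF (0.151 to 0.582). CIT, with 0 against 4 counts, allows a ratio of up to 4.47, and mouse Cenpf had a ratio of 0.805 (0.553 to 1.15) to the NIH3T3 monoculture. With 1 library on each side there is no test, and among genes that reached 50 CPM in 1 of the libraries, 53.7% of 2558 in human and 26.9% of 2475 in mouse differed by more than 2-fold. Long genes were low in the input as a group: the median log2 ratio was -1.21 over 198 human genes above 9000 bases, against -0.31 over all, and -1.34 over 98 mouse genes, against -0.16. The input is the denominator of every comparison with it above, and long genes took 2.86% of its human counts, against 4.83% in the HEK293 monoculture.

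Length was part of the choice, so the other long genes show what the threshold alone selects. With the 4 genes left out, 835 human genes above 9000 bases had a median log2 difference of 0.19 between V5 and HA IPs, against -0.37 over all genes, and 55.2% of them were above 0. In mouse, 921 such genes had a median of 0.38 between HA and V5 IPs, against -0.13 over all. By length, the median between off-target and on-target IPs was lowest at 1000 to 2000 bases, at -0.72 in human and -0.45 in mouse, and highest above 9000 bases. Across 2255 human genes with a mean of at least 50 CPM, Spearman's rho of log2 difference and length was 0.227 between V5 and HA IPs, and it was 0.217 across 2231 mouse genes between HA and V5 IPs; genes share libraries and are not independent replicates. GC content, which has a rho of -0.302 with length, had a rho of -0.0355 with V5 minus HA but of -0.670 with HA minus input.

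The size of this shift in medians depended on which IPs were used. Without the first V5 IP, the median of long human genes was 0.03 above that of all genes, against 0.56 with it. The V5 side then rests on the 81798 human counts of the second V5 IP. Without the first HA IP, the median of long mouse genes was 0.08 below that of all, at -0.08, against 0.51 above with it. Long genes took 4.91% of mouse counts in the first HA IP and 2.34% in the second, against 2.42% and 2.08% in the V5 IPs. In human they took 5.27% and 5.00% with V5 and 4.39% and 3.44% with HA, so by this share both V5 IPs lay above both HA IPs. Where the longest coding transcript was used in place of exonic length, the human long genes were 0.84 above all genes in V5 minus HA.

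On-target IPs differed by length from the input as well. The median of long genes was 0.60 in human HA minus input, against 0.38 over all, and 0.77 in mouse V5 minus input, against 0.12. With genes at 0 counts in one group put at 3 counts, the human values became 0.08 and 0.17 and the mouse values 0.46 and 0.06. The human order thus turned, but 3 counts are 10.7 CPM in the input and 4.11 and 2.47 CPM in the HA IPs. This floor sets genes without input reads low, so the turn does not show that long genes were lower with HA. For the off-target IPs minus input the medians became 0.41 and 0.22 in human (0.67 and 0.00 as fitted) and 0.99 and 0.14 in mouse (1.20 and 0.00 as fitted). The human 0.41 is the value of any gene at 0 in one group and at most 3 counts in the other, set by library totals alone. Genes of 6000 to 9000 bases had the same 0.41, so it does not measure a shift of long genes. Against the HEK293 monoculture the order in human was the opposite: HA medians went down with each length bin, from 0.60 under 1000 bases to -0.38 above 9000, beside 0.01 over all, and rho with length was -0.201 across the same 2255 genes. In mouse V5 minus NIH3T3, the median of long genes was 0.01, beside 0.02 over all, and rho with length was -0.113 across 2231 genes.

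**Figure D2:**
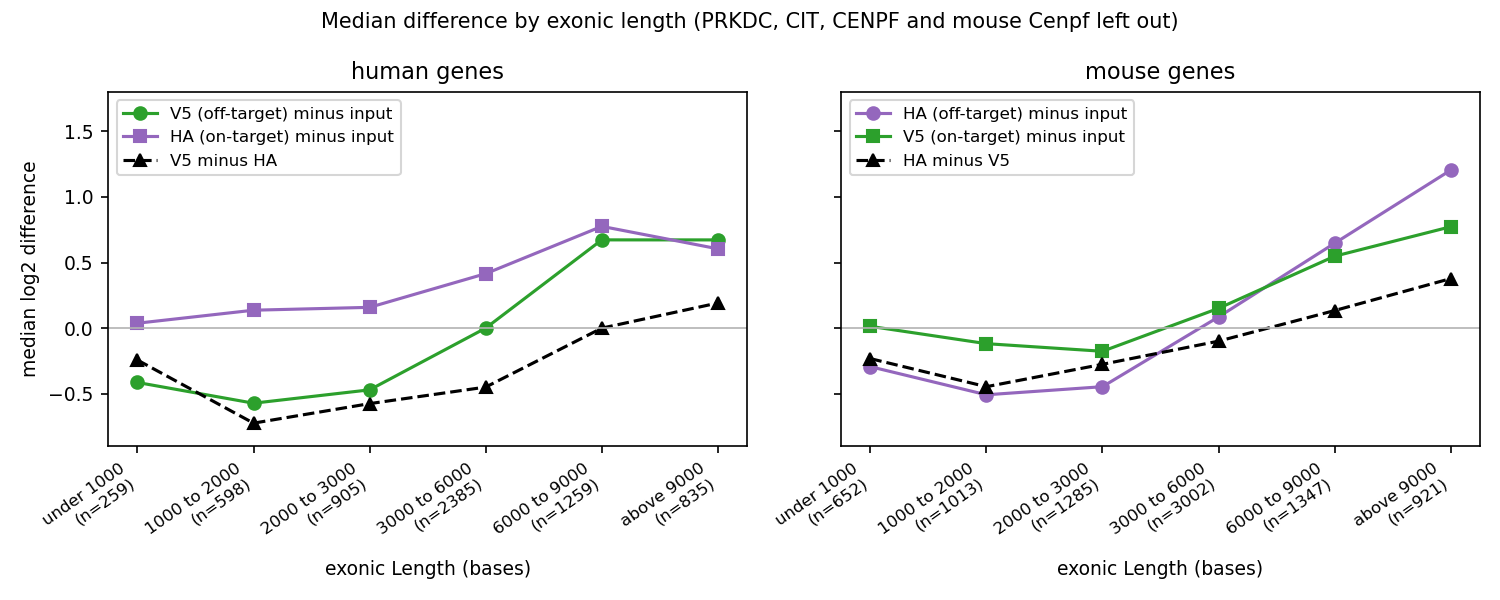
Median fitted log2 difference by exonic length for human genes (left) and mouse genes (right), with the number of genes in each bin on the horizontal axis and lines for off-target IPs minus input, on-target IPs minus input and off-target minus on-target. The dashed line reaches 0.19 in human and 0.38 in mouse above 9000 bases.

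Among 838 long human genes tested, ranked by V5 minus HA, CIT was at rank 3, PRKDC at rank 54 and CENPF at rank 232. Among the 162 of them with a mean of at least 50 CPM the ranks were 1, 6 and 29. Mouse Cenpf was at rank 18 of 922, and at rank 2 of the 98 with at least 50 CPM. The choice used the difference ranked here, so these ranks describe the choice and are no test. CIT reached a mean of 50 CPM only through the second V5 IP, with 40 reads (489 CPM). Of the 835 other long human genes, 5 were called higher in V5 and 1 lower, beside 0.320% of all 6244 genes called higher and 0.0480% lower. MYH9 and MYH10, the heavy chains of non-muscle myosin, lie at the very edge of the length threshold with 9012 and 9011 exonic bases, and just outside it lies the nuclear RNA MALAT1 with 8829. MYH9 went from 107 and 5.77 CPM in the HA IPs to 2032 and 330 CPM in the V5 IPs (log2 difference 4.23, SE 0.60, edgeR adjusted p = 3.73e-09), and MYH10 from 85.0 and 14.01 to 590 and 330 CPM (2.998, SE 0.69, edgeR adjusted p = 0.00405). Of 12 alternatives, MYH9 was not called under 3 (without the first V5 IP, with 50 counts in 2 libraries and by DESeq2) and MYH10 under 2 (without the second HA IP and with 50 counts in 2 libraries). MALAT1 was at 311 and 423 CPM with HA and 1001 and 1602 CPM with V5 (log2 difference 1.40). It was not called between them as fitted here (edgeR adjusted p = 0.201), but it was under 7 of 12 alternatives, with adjusted p from 1.38e-05 to 0.466 over the 12 (11 edgeR settings and DESeq2).

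TRIP11, which encodes a Golgi microtubule-associated protein, was called higher in V5 under all 12 alternatives tried (log2 difference 3.23, SE 0.59), at 450 and 1553 CPM in the V5 IPs against 94.6 and 68.4 CPM in the HA IPs. TNR was also called, but 160 reads were assigned to it in the NIH3T3 monoculture and 6 in the HEK293 monoculture, so reads of mouse cells are assigned to it, whereas PRKDC, CIT and CENPF had 0 counts there. The remaining calls were ONECUT2, higher, and BCAR1, lower, which are named after their values were seen and were each lost under 4 alternatives. Of the abundant long genes, NACA, the alpha chain of the nascent polypeptide complex, was at 1880 and 2217 CPM with HA and 1443 and 1797 CPM with V5, and LRPAP1 was at 1042 and 959 against 1117 and 513 CPM. RPS29, a small ribosomal protein gene with 9845 annotated exonic bases, was at 619 and 601 against 807 and 758 CPM. Its longest annotated coding transcript is 7062 bases.

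**Figure D3:**
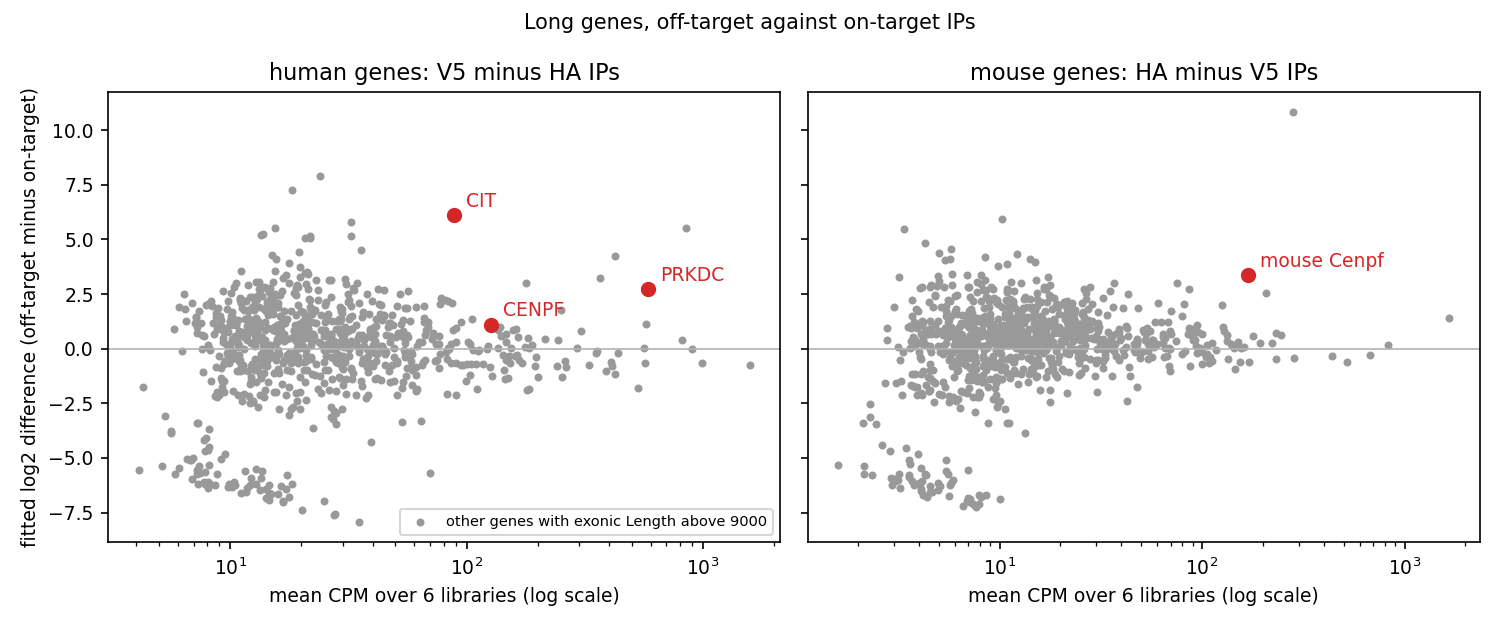
Fitted log2 difference of off-target minus on-target IPs against mean CPM (log axis) for genes with exonic length above 9000 bases, human on the left and mouse on the right. Grey points are the other long genes, and PRKDC, CIT, CENPF and mouse Cenpf are in red, at 2.71, 6.10, 1.10 and 3.36.

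Patterns over the 6 libraries of each species were compared by Pearson's r of log2 CPM, over 2254 human and 2230 mouse genes with a mean of at least 50 CPM. PRKDC was most like CTPS1 (r = 0.989), which makes CTP, and MYH10 (r = 0.987), followed by PABPC1, SQLE and RPS23. CTPS1 was at 21.4 CPM in the input, 50.8 in the HEK293 monoculture, 50.7 and 20.6 with HA and 217 and 159 with V5, so it shares with PRKDC the excess of the first HA IP over the second. CIT was most like CAD (r = 0.983), the enzyme that starts pyrimidine synthesis, and APTX (r = 0.981), followed by SLC25A48, LETM1 and RNF113A. CAD was at 54.3 and 196 CPM with V5 and 9.59 and 12.4 CPM with HA, and like CIT it was higher in the second V5 IP. CENPF was most like GOLGB1 (r = 0.989), a long Golgi coiled-coil protein, followed by ADK, COPB2, MPHOSPH8 and RPL22L1. GOLGB1 was at 10.7 CPM in the input, 54.4 in the monoculture, 31.5 and 21.4 with HA and 93.1 and 257 with V5.

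Between the 3 human genes, r was 0.909 for CENPF and CIT, 0.760 for CENPF and PRKDC and 0.701 for CIT and PRKDC, each over the same 6 libraries. Of the 15 nearest human genes, CTPS1, MYH10 and GOLGB1 have exonic lengths above 9000 bases, at 11517, 9011 and 11865. Mouse Cenpf was most like ENSMUSG00000043909 (r = 0.984), a gene of 14164 exonic bases that is at 1211 and 465 CPM with HA, 0.517 and 0 CPM with V5, 1.32 in the input and 3.50 in the NIH3T3 monoculture. Its counts in the HEK293 monoculture were 0. Also among the 5 nearest was ENSMUSG00000064351, a mitochondrial gene (r = 0.961), at 3525 and 2701 CPM in the HA IPs against 358 and 300 CPM in the V5 IPs. Every r rests on the same 6 libraries in 4 groups. These include the off-target IPs, where the 4 genes were chosen to be high. High r between the human genes and with their nearest genes was thus set in part by the choice and is no support for a link. Some of the nearest genes, such as CAD, SLC25A48 and ENSMUSG00000043909, reached a mean of 50 CPM only through the off-target IPs.

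Genes known to work with these proteins were compared between V5 and HA IPs, where 0.320% of all human genes were called higher and 0.0480% lower, 39.2% were above 0 and the median was -0.37. Of 13 genes of non-homologous end joining, 7 were tested, and none was called by edgeR or DESeq2 (0 at an unadjusted p under 0.05). Their median of V5 minus HA was -0.65, against -0.37 over all, and 0.07 with genes at 0 counts put at 3 counts. XRCC6, the Ku70 partner of the kinase, was at 506 and 345 CPM with HA and 1094 and 734 CPM with V5 (edgeR adjusted p = 0.558). PAXX was at 285 and 270 against 77.6 and 403 CPM (edgeR adjusted p = 0.678). Of 5 other members of the protein family of PRKDC, ATM and TRRAP were tested. Neither was called by edgeR or DESeq2 (0 at an unadjusted p under 0.05). ATM, with 23972 exonic bases, had no counts in the V5 IPs and was at 12.3 and 10.7 CPM in the HA IPs. In the V5 IPs 3 counts would be 23.3 and 36.7 CPM, so a level like that with HA could go uncounted there. TRRAP, with 19972 exonic bases, was at 12.3 and 2.47 against 23.3 and 0 CPM. The longest coding transcripts of ATM and TRRAP, at 13147 and 12677 bases, are shorter than the 13509 bases of PRKDC.

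Of 26 genes that act in cytokinesis with citron kinase, 21 were tested, and 2 were called higher in V5 than HA, namely MYH9 and MYH10, both named above, beside 0.320% of all human genes called higher. The median was 0.21, against -0.37 over all. DESeq2 called 1 of them, MYH10. Without the first V5 IP the median was -0.10, against -0.93 over all, with 1 call. Of 28 kinetochore genes, 26 were tested and none was called by edgeR or DESeq2 (1 at an unadjusted p under 0.05), with a median of -0.16, and ZWINT, a kinetochore scaffold, was at 244 and 233 CPM with HA and 442 and 196 CPM with V5. Of 15 transcripts that, like CENPF, peak late in the cell cycle, all were tested and none was called by edgeR or DESeq2 (1 at an unadjusted p under 0.05), with a median of -0.04; cyclin B1 (CCNB1) was at 212 and 90.7 against 217 and 159 CPM. Against the HEK293 monoculture, 20 of the 26 kinetochore genes and 10 of the 15 late cell cycle genes were below 0 in the HA IPs, beside 49.4% of all human genes, with medians of -0.57 and -0.39, beside 0.01 over all. None was called by edgeR or DESeq2, and 1 kinetochore and 2 late cell cycle genes had an unadjusted p under 0.05.

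Of a list of 26 long mRNAs of scaffolds, motors and ubiquitin ligases, 15 were tested. In V5 minus HA, 12 were above 0 with a median of 0.97, where 39.2% of all human genes were above 0 with a median of -0.37. All 15 have exonic lengths above 9000 bases and so belong to the 835 long genes above. Of these long genes 55.2% were above 0, with a median of 0.19. None was called by edgeR or DESeq2 (3 at an unadjusted p under 0.05), and 1 was called without the second V5 IP. Without the first V5 IP the median was -0.39 over the 14 then tested, against -0.93 over all. TPR, a nuclear pore protein, was at 170 and 185 CPM with HA and 326 and 159 CPM with V5, and clathrin heavy chain (CLTC) at 49.3 and 29.7 against 101 and 73.4 CPM. The mitochondrially encoded mRNAs, which cytosolic ribosomes do not read, were the list with the most calls: 10 of 13 were higher in V5 than HA, with a median of 2.38, and all 13 were lower in HA than in the input, where 0.432% of human genes were called lower. Without the first V5 IP the count was 4 and without the second it was 2. MT-ND1 was at 69.9 and 138 CPM with HA, 729 and 1589 with V5 and 3063 in the input, so V5 lay between HA and input. PRKDC and CENPF in V5 lay above both, but lying above HA was a condition of their choice. The input was also low in them, at 0.380 and 0.312 of the HEK293 monoculture. The contrast with MT-ND1 was not tested. Of the nuclear non-coding RNAs 3 of 5 were tested. None was called in V5 minus HA by edgeR (1 at an unadjusted p under 0.05) and 1 by DESeq2, MALAT1, with a median of 1.23 against -0.37 over all; as given above, MALAT1 was called under 7 of 12 alternatives. MALAT1 was lower in HA IPs than in the HEK293 monoculture (log2 difference -2.95, SE 0.52, edgeR adjusted p = 6.28e-06), where 0.320% of human genes were called lower. The co-culture input was already low in MALAT1, at 221 CPM against 2906 CPM in that monoculture. From the input the HA IPs differed by 0.59 (SE 0.57, edgeR adjusted p = 0.853).

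**Figure D4:**
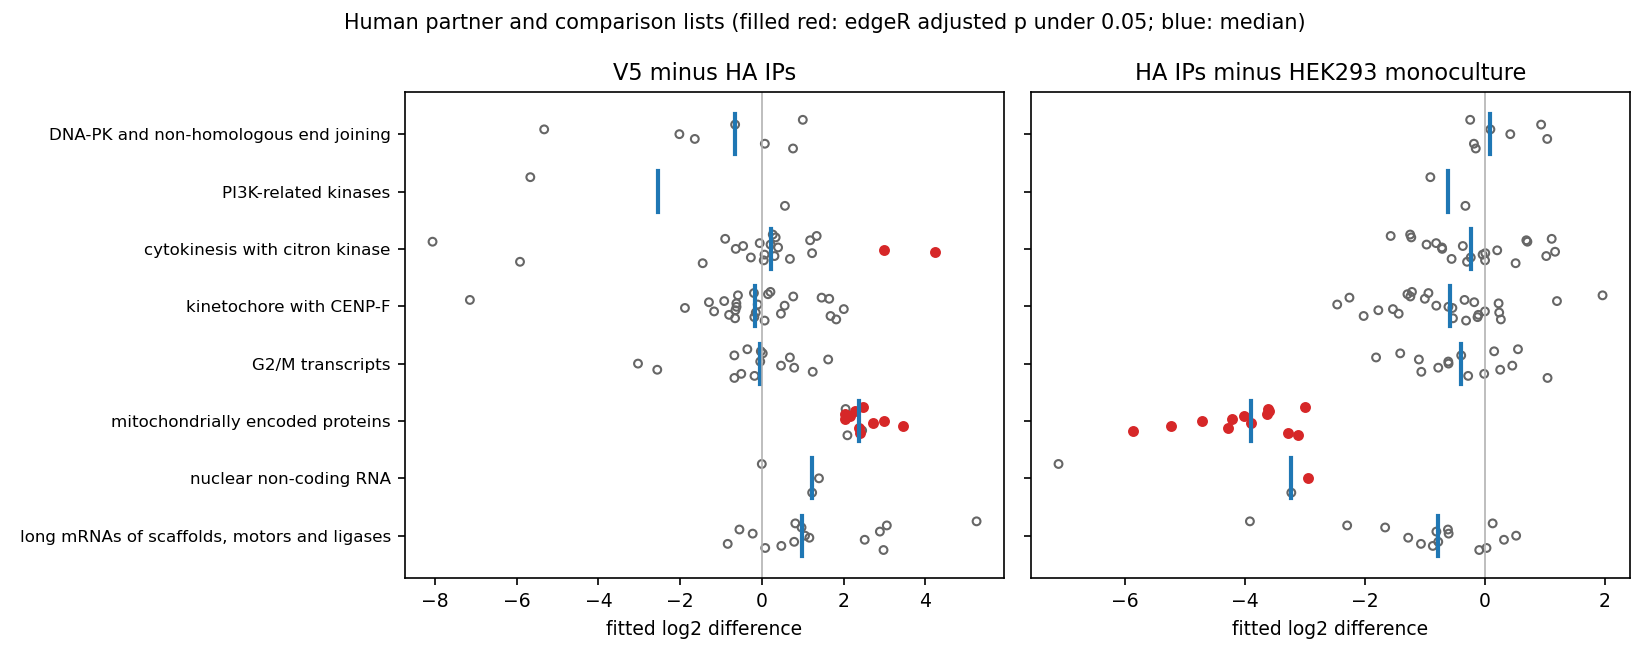
Fitted log2 differences of single genes in 8 human gene lists, for V5 minus HA IPs (left) and HA IPs minus HEK293 monoculture (right). Filled red points passed edgeR's test at an adjusted p under 0.05, open points did not, and blue bars are list medians; the mitochondrial genes hold 10 of the 12 red points on the left.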

How the data were processed

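The deposited counts are whole-number reads per gene that the authors obtained by running featureCounts 1.5.2 on exons joined by gene identifier, for read pairs and ignoring strand, with human and mouse annotation combined, per the file headers. The Length column, the summed exonic bases of a gene, is also as deposited. SMART-seq cDNA and Nextera DNA Flex libraries were used, per the labels' protocols, and bcl2fastq, Trim Galore, STAR 2.5.2, SAMtools and hg38 are named in the submitters' processing notes. All 58721 human identifiers matched GENCODE 29 with equal start and end; 54752 mouse identifiers had no symbol table, apart from Cenpf, whose identifier was given with the choice.

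CPM were computed from own-species totals. Human and mouse genes were each fitted with edgeR 4.0.16 (quasi-likelihood, R 4.3.3) over 6 libraries in 4 groups, with TMM, filterByExpr (minimum count 10, total 15), Benjamini-Hochberg adjustment over 6244 human or 8221 mouse genes, a threshold of 0.05 and 2 residual degrees of freedom. The input and the monoculture have no replicates and take the spread of the IPs. Common dispersion corresponded to a biological coefficient of variation of 51.2% in human and 44.8% in mouse. Intervals are exact Poisson or conditional binomial 95% intervals and cover counting error only, since reads carried no molecular identifiers. Single libraries were compared with a prior count of 2. Called genes in 1 against 1 library means past 2-fold. A gene that misses the threshold is not thereby shown to be unchanged. The alternatives were DESeq2 1.42.0 (size factors, Wald test), total counts, 2 other filters (none; 50 counts in 2 libraries), a block for IP order, removal of length or GC trends and leaving out each IP.

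The genes and lists were chosen with earlier results of these data known. Named genes were the 4 members, the 5 nearest to each in pattern, up to 4 called or else the 2 most abundant members of each list, and the 5 most abundant and 5 most different long human genes. No sequence is printed.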

Additional observations from a re-analysis of the deposited data

Results flagged for a closer look

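Mouse Cenpf moved in opposite directions from the co-culture input in the 2 kinds of IP. It was above the input by 520 and 197 CPM of mouse counts in the first and second HA IP, at -21.4 and -21.3 CPM relative to it in the V5 IPs. The opposite signs follow in part from the choice of the gene for its level in the HA IPs, and the difference between the antibodies was not tested.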

How the results depend on the processing

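The choice used the differences between off-target and on-target IPs, so a kept sign there is no support for them. The sign was kept under every alternative that gave a value. The range was 2.01 to 4.04 for PRKDC, 0.56 to 1.69 for CENPF, 5.66 to 7.07 for CIT and 2.90 to 3.72 for mouse Cenpf. For CIT there were 10 alternatives, as it was not tested without the second V5 IP or with 50 counts in 2 libraries. Differences that turned, none called, were PRKDC in HA minus input without the first HA IP (-0.33; 1.63 without the second), CENPF in HA minus input with the GC trend removed (-0.21), and PRKDC in HA minus HEK293 with the block (0.29), with the length trend removed (0.15) and without the second HA IP (0.45; -1.52 without the first). The median of long genes relative to all genes turned in HA minus input with the GC trend removed (-0.12), in mouse V5 minus NIH3T3 with the replicate block (0.070), with the length trend removed (0.043) and above 6000 bases (0.0059), and in mouse HA minus V5 without the first HA IP (-0.079, and up to 0.65 without another IP). The cause was not tested. The long-gene alternatives other than 6000 bases were chosen after seeing the data.

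Counts of called genes over each whole species moved more. HA minus input had 39 calls, 68 with size factors, 104 with total counts, 82 with DESeq2 and 78 with the length trend removed. HA minus HEK293 had 23, 53 with total counts, 35 with DESeq2 and 35 with the length trend removed. V5 minus input had 47, 72 with size factors, 105 with total counts, 30 with no filter, 7 with 50 counts in 2 libraries and 24 with the GC trend removed. V5 minus HA had 23, 38 with total counts, 39 with the length and 40 with the GC trend removed. In mouse, V5 minus input had 67 and 110 with DESeq2, V5 minus NIH3T3 31, 65 with no filter and 11 with 50 counts in 2 libraries, HA minus input 134, 30 with that filter and 89 with the length trend removed, and HA minus V5 22 and 13 with that filter. With total counts 62.5% of the HA minus input calls were higher (12 of 39 before), 45.3% in HA minus HEK293 (3 of 23) and 81.0% in V5 minus input (16 of 47). Leaving out 1 IP gave 29 to 140, 26 to 63, 76 to 167 and 18 to 117 calls in human, in the order above, and 1 to 867, 4 to 648, 20 to 1381 and 2 to 794 in mouse; the lone IP was then assumed to vary like the other groups.

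IP order as a block moved the mouse counts to 112 in V5 minus input and 56 in V5 minus NIH3T3, and no other count by over 1.5 times. The labels give the first HA and first V5 IP the same lysate number but the second IPs different ones, so IP order is a shared lysate for the first pair alone, and the deviations of same-order IPs correlated at 0.0911 in human and 0.0880 in mouse. Depth limits several values: in the V5 IPs 19 and 24 reads carry CENPF, and 4 and 40 carry CIT, while the input holds 11 and 0.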
